A study of Mus musculus with 16 samples.

Results

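The genes described here are those of the mitochondrial respiratory chain and of the ATP synthase that are read from nuclear DNA. They were chosen by name: gene symbols beginning with Nduf, Uqcr, Cox followed by 4 to 8, or Atp5, and the genes Sdha, Sdhb, Sdhc and Sdhd. That rule matched 90 of 23234 named genes, and 84 of the 90 had at least 1 FPKM (fragments of a transcript, scaled by its length and by all mapped fragments of the library) in at least 2 libraries. The 84 genes comprised 7 core and 29 accessory subunits of complex I, 4 complex I assembly factors, 4 subunits of complex II, 8 of complex III, 13 of complex IV and 15 of complex V. Another 4 genes matched by name without being subunits of these complexes. The 6 genes under the minimum were Cox4i2, Cox6a2, Cox7b2, Cox8b, Cox8c and Ndufa4l2.

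Bulk RNA sequencing had been done on 16 libraries of B cells from the mouse germinal centre (GC) response, the reaction in which antigen-activated B cells mutate their antibodies, are selected and leave as memory or plasma cells. In all 6 groups the cells came from Bcl6-YFP(KI/+) B1-8hi(KI/+) donors of the C57BL/6 strain. Every group thus carried a knock-in reporter at Bcl6, the transcription factor that GC B cells depend on, and a knock-in antibody heavy chain that favours binding to the hapten NP. Naïve donor B cells had been placed in CD45.1+ wild-type recipients, which were given NP-CGG in alum, and NP-binding, IgG1+, CD138- donor cells were sorted on day 10 from spleens pooled over 9 recipients. The CD38+ GL7- gate gave 3 groups. Fraction 7, labelled mature memory, was Bcl6-YFP low and Efnb1 low (3 libraries). Fraction 6, labelled pre-memory, was Bcl6-YFP low and Efnb1 high (2 libraries), and Fraction 5, labelled pro-memory, was high for both (3 libraries). The CD38-, CD86 high, CXCR4 low gate of the GC light zone gave the others. Fraction 2, labelled recycling-prone, was Bcl6-YFP high and CD69 high (2 libraries), and Fraction 3, labelled as under selection, was Bcl6-YFP high and CD69 low (3 libraries). LZ was sorted on the light zone gate alone (3 libraries), a gate that both fractions lie within. Ages are not given. Whether replicate libraries represent separate sorts or pools is not labelled, so p-values rest on a spread that may be technical.

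Complexes I and II pass electrons from NADH and succinate to ubiquinone, complex III passes them on to cytochrome c and complex IV to oxygen. Complexes I, III and IV pump protons across the inner mitochondrial membrane, and complex V, the ATP synthase, makes ATP from their return. Most subunits are read from nuclear genes; those read from mitochondrial DNA are not analysed here. Selected GC B cells grow and divide rapidly, whereas memory B cells rest.

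Summed FPKM per library lay between 416740 and 492580, and 10133 to 10552 genes reached 1 FPKM, with absolute depth unknown. The B cell genes Cd79a, Cd79b, Ms4a1 and Pax5 were present in all 16 libraries, and Bcl6 was at 20.5, 18.4 and 15.02 FPKM in Fraction 7 and 75.3 and 70.2 FPKM in Fraction 6, against 145 to 205 FPKM in the other 11 libraries. The 6 plasma cell markers summed to 337 to 619 FPKM in Fraction 7 and 259 to 501 FPKM elsewhere. Of them, Sdc1 was at 0.502, 4.44 and 4.51 FPKM in the Fraction 7 libraries and at most 0.534 FPKM elsewhere, although the cells were sorted as lacking CD138, the protein Sdc1 encodes, and Igj was at 46.9, 296 and 292 FPKM in Fraction 7 against at most 152 FPKM elsewhere. Xbp1 was at 34.0, 84.9 and 81.3 FPKM in Fraction 7 and at most 62.4 FPKM elsewhere. Irf4 (19.5, 20.6 and 21.4 FPKM, against at most 12.0 FPKM elsewhere) and Prdm1 (1.37, 2.00 and 1.97 FPKM, against at most 0.772 FPKM) were higher in all 3 Fraction 7 libraries, including the one with low Sdc1. 2010001M09Rik, at 235, 211 and 211 FPKM in Fraction 7, lay within the 189 to 300.2 FPKM of the other libraries. The 6 myeloid markers summed to 31.4 to 85.2 FPKM in Fraction 7, carried by Ly6c2 and Itgam, and to at most 11.1 FPKM elsewhere. Cd14 was at 0 in 15 of 16 libraries and Csf1r at most 0.528 FPKM in any, a maximum reached in Fraction 7. Emr1 was at 1.23, 2.46 and 1.17 FPKM in Fraction 7 and 1.06 and 1.41 FPKM in Fraction 6. In the other 11 libraries Emr1 was at most 0.254 FPKM. Lyz2 was at 1.08, 2.04 and 3.34 FPKM in Fraction 7, 5.70 and 1.08 FPKM in Fraction 6 and 0 to 3.06 FPKM in the others. Of the 5 T cell markers, Cd3e was at 0 in 15 libraries and Cd3g, Cd4 and Cd8a were at most 0.758 FPKM in any, whereas Lck was present in every library, at 6.20, 6.52 and 7.86 FPKM in Fraction 7, 19.2 and 23.8 FPKM in Fraction 6 and 23.7 to 36.5 FPKM in the other groups. In bulk RNA, fewer cells of a type and less RNA per cell cannot be told apart, and FPKM is a share of a library, so a change of the total RNA per cell is not seen.

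Most members moved together across groups, so the DNA before their starts was searched for 3 motifs known for binding factors that act on many nuclear mitochondrial genes: NRF1 (GCGCANGCG), GABP and other ETS factors (CCGGAAG) and YY1 (AAGATGGCG). The search covered both strands of RefSeq windows (GRCm38.p6) of 250 bases before to 50 after each annotated start, of which 72 of the 84 genes had at least 1 and 78 in all. NRF1 letters stood in 28.2% of the members' windows, against 14% of windows of all tested genes, GABP letters in 21.8% against 19.3%, and YY1 letters in 11.5% against 3.26%. Any of the 3 stood in 51.3% of the members' windows, against 32.1%. Windows of a gene can overlap and share a site, as for YY1 in Atp5sl. By gene, NRF1, GABP and YY1 letters stood in 21, 17 and 8 of the 72 members. Counts by gene were not made over all tested genes, and the shares above are by window. Below are the 250 bases before the start of 5 genes whose values follow: the largest fall in Fraction 7 against LZ (Atp5g1, with no match in its window), another fall of that size (Atp5k), a complex II pair that fell unequally (Sdhd and Sdha), and a gene that was not called as deposited (Uqcrh). Capitals mark motif letters on either strand.
Atp5g1, chr11:96075632-96075881 (minus strand): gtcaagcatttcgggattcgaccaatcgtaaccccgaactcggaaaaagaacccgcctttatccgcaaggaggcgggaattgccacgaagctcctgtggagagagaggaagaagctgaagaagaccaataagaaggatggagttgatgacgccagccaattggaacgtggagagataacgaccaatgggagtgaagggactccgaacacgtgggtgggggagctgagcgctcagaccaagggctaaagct
Atp5k, chr5:108434400-108434649 (minus strand): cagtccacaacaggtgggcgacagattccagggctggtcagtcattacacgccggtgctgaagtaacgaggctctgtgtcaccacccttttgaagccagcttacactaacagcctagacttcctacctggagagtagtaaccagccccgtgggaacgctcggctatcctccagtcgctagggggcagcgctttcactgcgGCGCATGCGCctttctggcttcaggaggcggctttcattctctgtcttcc
Sdhd, chr9:50603850-50604099 (minus strand): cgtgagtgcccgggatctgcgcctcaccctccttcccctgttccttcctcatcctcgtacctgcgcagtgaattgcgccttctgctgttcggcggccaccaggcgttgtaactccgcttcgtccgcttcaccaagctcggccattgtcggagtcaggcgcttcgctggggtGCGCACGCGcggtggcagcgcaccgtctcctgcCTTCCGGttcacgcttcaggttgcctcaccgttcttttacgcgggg
Sdha, chr13:74350241-74350490 (minus strand): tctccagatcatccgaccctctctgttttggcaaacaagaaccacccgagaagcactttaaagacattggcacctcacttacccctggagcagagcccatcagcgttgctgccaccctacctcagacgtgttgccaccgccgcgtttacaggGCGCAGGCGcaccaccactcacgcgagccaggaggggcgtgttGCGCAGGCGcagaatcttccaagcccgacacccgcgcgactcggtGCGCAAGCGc
Uqcrh, chr4:116075071-116075320 (minus strand): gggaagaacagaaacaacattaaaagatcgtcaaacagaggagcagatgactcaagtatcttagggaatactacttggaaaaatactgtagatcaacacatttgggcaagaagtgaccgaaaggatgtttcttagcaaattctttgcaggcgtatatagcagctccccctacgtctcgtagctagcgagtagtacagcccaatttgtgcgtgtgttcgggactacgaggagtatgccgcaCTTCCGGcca
The Atp5k stretch holds 1 site that reads as NRF1 on both strands, Sdhd holds an NRF1 and a GABP match, Sdha holds 3 NRF1 matches and Uqcrh holds a GABP match. A match is a description of letters, not of binding. The median log2 change in Fraction 7 against LZ was -0.76 over the 38 genes with any match and -0.81 over the 34 without.

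Summed, the 84 genes made up 1.49 ± 0.02% of library FPKM in Fraction 7, 1.55 ± 0.06% in Fraction 6 and 1.78 ± 0.05% in Fraction 5 (SD, n = 3, 2 and 3). This share includes the assembly factors and the 4 other genes that are not subunits. The share was 2.32 ± 0.01% in Fraction 2, 2.21 ± 0.06% in Fraction 3 and 2.22 ± 0.03% in LZ (SD, n = 2, 3 and 3). The 3 CD38+ groups lay below the 3 light zone groups in every library. Fraction 2 held the highest group mean for 55 of 84 genes, LZ for 15, Fraction 3 for 8, Fraction 5 for 3, Fraction 7 for 2 and Fraction 6 for 1. The lowest mean was in Fraction 7 for 59 genes and in Fraction 6 for 19. The same counts were not made over all tested genes, so these describe the members alone.

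**Figure D1:**
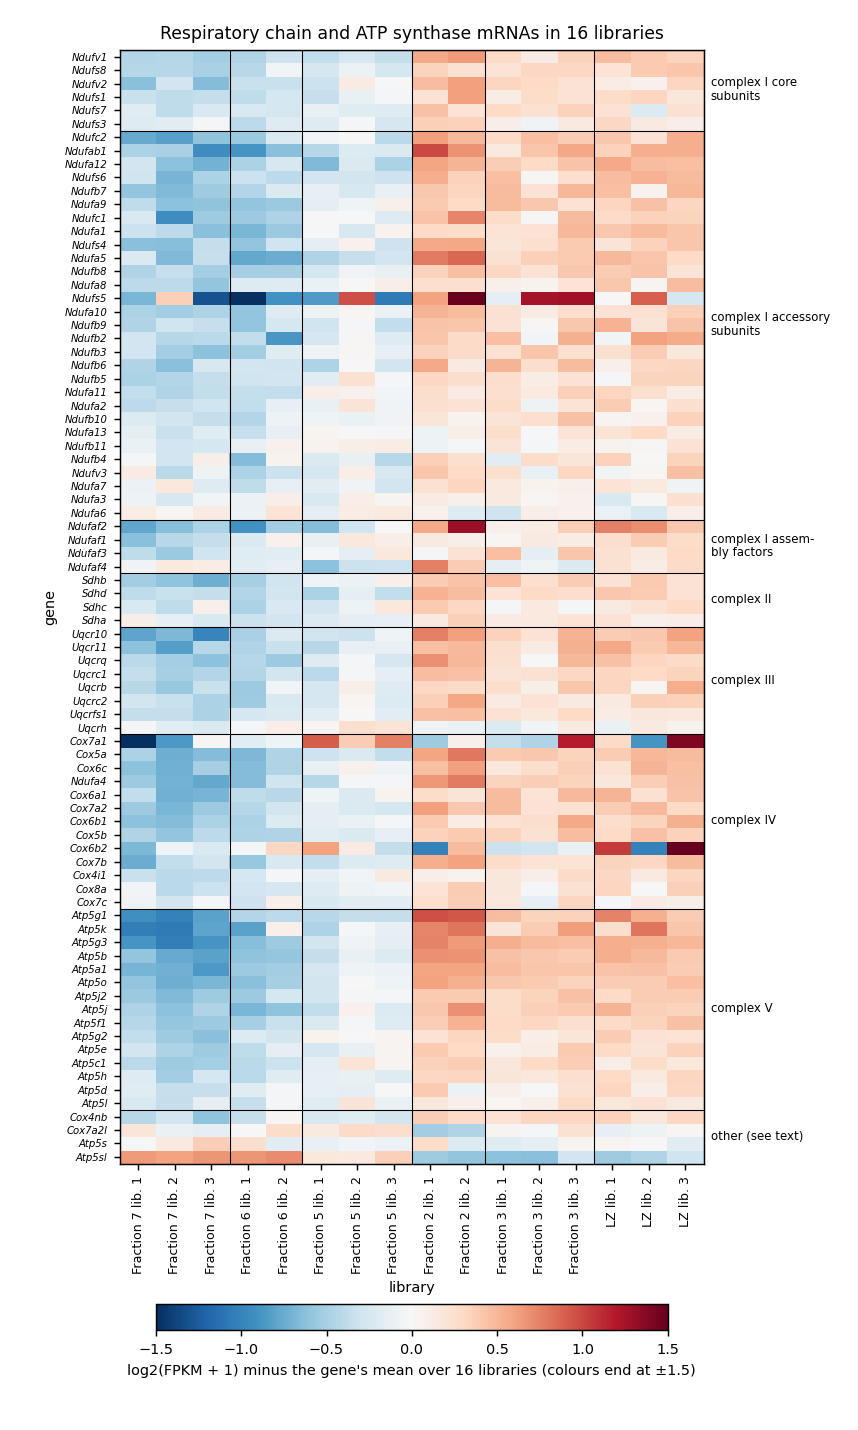
Level of 83 of the 84 genes in each of the 16 libraries, as the log2(FPKM + 1) difference from the gene's mean over all libraries, with genes in rows by complex and libraries in columns from Fraction 7 to LZ. Most rows are below their mean in Fractions 7 and 6 and above it in Fractions 2, 3 and LZ, and the exceptions include Atp5sl, Cox7a2l, Ndufa6 and Uqcrh.

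Mature memory cells had lower levels of most of these mRNAs than the light zone gate. In Fraction 7 against LZ, 70 of 84 genes fell and 1 rose (limma on log2(FPKM + 1), Benjamini-Hochberg adjusted p below 0.05 over 11266 genes), where 38.0% of all tested genes fell and 24.1% rose, 62.1% in either direction. Without the 4 genes outside the complexes and their assembly that matched by name (Atp5sl, Cox7a2l, Atp5s and Cox4nb, as classed here), 69 of 80 fell and none rose. The median log2 change of the 84 was -0.75, against -0.10 over all tested genes. With other scalings the median over all genes moved up by 0.12; relative to that median, the members' median was -0.65 as deposited, -0.43 after quantile normalization and -0.63 after median-ratio scaling. After quantile normalization 57 members fell and 6 rose, while 3467 of all tested genes fell and 3464 rose. Of the 71 calls, 68 held without any single library. Without both Fraction 7 libraries in which Sdc1 passed 1 FPKM, 64 of the 71 were called. The library that remains still had 31.4 FPKM of the myeloid markers and higher Irf4 and Prdm1 than any library of another group, and the part of the plasma cell, myeloid and T cell markers in the result was not tested.

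Complex V makes the ATP. Its 15 subunits all fell in Fraction 7 against LZ, with a median log2 change of -0.91, and its summed FPKM in Fraction 7 was 52.2% of the LZ sum. The summed FPKM was 1961 ± 106 in Fraction 7, 2244 ± 201 in Fraction 6 and 2699.6 ± 187 in Fraction 5. The light zone groups had 4089 ± 25.1 in Fraction 2, 3620.3 ± 132 in Fraction 3 and 3758 ± 39.1 in LZ. By summed FPKM complex IV followed, at 57.3% of the LZ sum, with 10 of 13 subunits down. Its median, -0.95, was lower than that of complex V. Complex III had 7 of 8 down, a median of -0.75 and 61.4%. Complex I had 30 of 36 subunits down, a median of -0.74 and 66.3%, with all 7 core subunits among the 30. All 4 complex II subunits fell, with the smallest median of the complexes, -0.55, and 67.7% of the LZ sum. Of these 4 calls, 2 held without any single library. Of the assembly factors, 3 of 4 fell, and their sum was 54.9% of that in LZ. After quantile normalization, 13 of 15 complex V genes and 9 of 13 complex IV genes fell. Complex III then had 7 of 8 down and 1 up, complex I 22 of 36 down and 2 up, and complex II 2 of 4 down and 1 up. The differences between complexes were not tested; complex V genes were also the most abundant, with a median level over the 16 libraries of 191 FPKM, against 178 FPKM for complex IV, 104 FPKM for complex III, 54.5 FPKM for complex II and 63.5 FPKM for the accessory subunits of complex I.

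**Figure D2:**
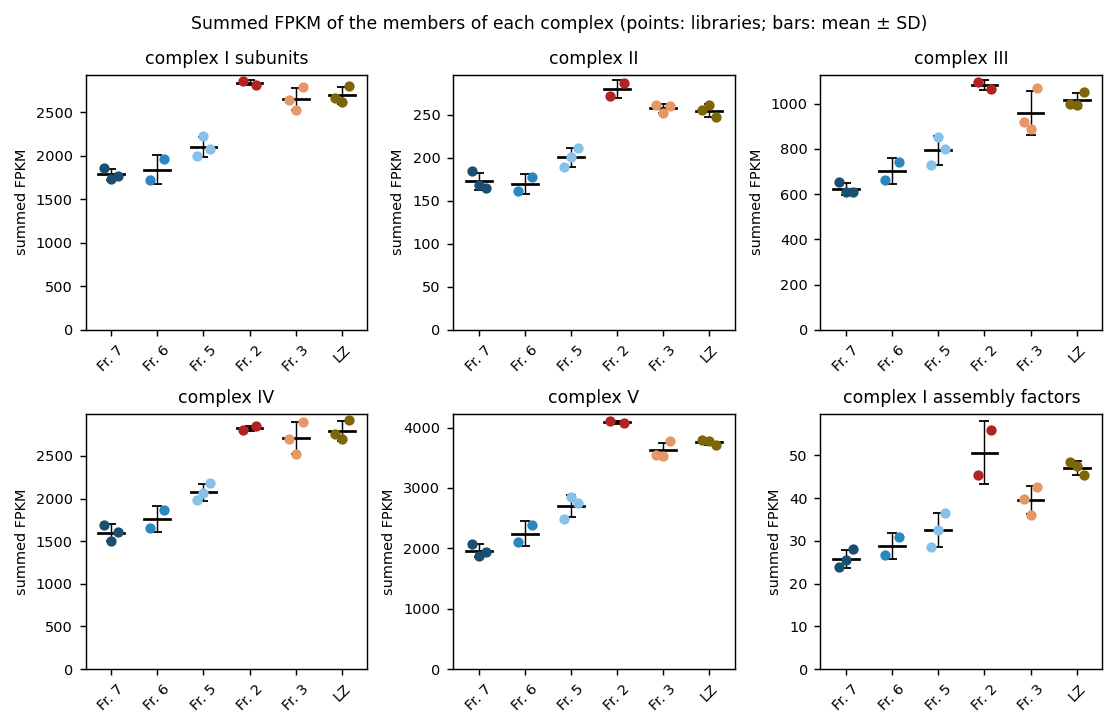
Summed FPKM of the genes of each complex and of the complex I assembly factors (vertical axes from 0) in the 6 groups from Fraction 7 to LZ, with 1 point per library and bars for the mean ± SD. Every panel is lower in Fractions 7, 6 and 5 than in Fractions 2, 3 and LZ, by group means, and the complex V mean was 1961 FPKM in Fraction 7 and 3758 FPKM in LZ.

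The catalytic head of complex V holds the alpha and beta subunits. Atp5b encodes the beta subunit, where ADP is phosphorylated, and had 214, 190.4 and 184 FPKM in Fraction 7, 212 and 215 FPKM in Fraction 6 and 252, 298 and 279 FPKM in Fraction 5. Values outside the CD38+ gate were 520.0 and 516 FPKM in Fraction 2, 439, 426 and 421 FPKM in Fraction 3 and 472, 452 and 424 FPKM in LZ. No library of the CD38+ gate overlapped the light zone libraries, and Fractions 7 and 6 overlapped each other. Atp5b fell in Fraction 7 against LZ (log2 change -1.19 ± 0.07, adjusted p = 7.08e-09), in Fraction 5 against Fraction 2 (log2 change -0.91 ± 0.08, adjusted p = 1.68e-06) and in Fraction 6 against Fraction 5 (log2 change -0.37 ± 0.08, adjusted p = 0.00603). It rose in Fraction 2 against Fraction 3 (log2 change 0.27 ± 0.08, adjusted p = 0.0356). Its partner Atp5a1, the alpha subunit, averaged 138 ± 8.27 FPKM in Fraction 7 and 314 ± 7.34 FPKM in LZ (log2 change -1.18 ± 0.06, adjusted p = 1.34e-09). Atp5c1, the central shaft, fell less, to 94.4 ± 4.57 FPKM in Fraction 7, against 149.8 ± 9.33 FPKM in LZ (log2 change -0.66 ± 0.08, adjusted p = 1.19e-05). Atp5e, the small epsilon subunit and the most abundant gene of the complex, averaged 272 ± 26.1 FPKM in Fraction 7 and 442 ± 24.7 FPKM in LZ (log2 change -0.70 ± 0.10, adjusted p = 5.29e-05).

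The stalk that holds the head in place fell as well. Atp5o, which joins the stalk to the head, averaged 85.9 ± 4.33 FPKM in Fraction 7, 92.1 ± 6.16 FPKM in Fraction 6 and 126 ± 12.3 FPKM in Fraction 5. It stood in the light zone at 203 ± 7.07 FPKM in Fraction 2, 178 ± 4.48 FPKM in Fraction 3 and 181 ± 5.32 FPKM in LZ. Fraction 7 against LZ gave a log2 change of -1.07 ± 0.07 (adjusted p = 1.89e-08), and Fraction 6 against Fraction 5 one of -0.45 ± 0.08 (adjusted p = 0.00135). Atp5j, another stalk subunit, also fell in Fraction 6 against Fraction 5 (log2 change -0.47 ± 0.12, adjusted p = 0.0113). Across the 6 group means, Atp5f1, Atp5b and Atp5o had the highest Pearson r with the mean of the other members, 0.9999, 0.999 and 0.997, a description over 6 points. Atp5k, a small membrane subunit, had 106, 103 and 126 FPKM in Fraction 7 and 262, 381 and 291 FPKM in LZ. The Fraction 7 libraries all lay below the LZ libraries (log2 change -1.46 ± 0.20, adjusted p = 2.66e-05), and the LZ libraries spread the more. RefSeq lists 4 pseudogenes of Atp5k, and 14 members have a pseudogene or near copy by name there, so reads of these genes may be shared or lost: Atp5c1, Atp5f1, Atp5k, Atp5l, Cox5b, Cox6c, Cox7c, Ndufa11, Ndufa12, Ndufab1, Ndufb4, Ndufs5, Ndufs6 and Uqcrh.

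Subunit c, which forms the rotating ring of the synthase, is encoded by Atp5g1, Atp5g2 and Atp5g3, whose mature proteins are identical. Atp5g1 had 32.7, 30.5 and 35.7 FPKM in Fraction 7, 46.3 and 47.8 FPKM in Fraction 6 and 47.0, 48.8 and 48.9 FPKM in Fraction 5. Light zone levels were 124 and 121 FPKM in Fraction 2, 86.7, 79.3 and 80.1 FPKM in Fraction 3 and 106, 91.6 and 82.5 FPKM in LZ. Fraction 2 lay above every other group and Fraction 7 below every other group. This gene had the largest fall of the 84 in Fraction 7 against LZ (log2 change -1.47 ± 0.08, adjusted p = 3.57e-09). It also rose in Fraction 2 against Fraction 3 (log2 change 0.57 ± 0.09, adjusted p = 0.00208), and fell in Fraction 5 against Fraction 2 (log2 change -1.32 ± 0.09, adjusted p = 3.62e-07) and in Fraction 7 against Fraction 6 (log2 change -0.50 ± 0.09, adjusted p = 0.00154). Atp5g3 averaged 115 ± 7.19 FPKM in Fraction 7 and 318 ± 4.59 FPKM in LZ (log2 change -1.46 ± 0.07, adjusted p = 6.42e-10). Atp5g2, the most abundant of the 3, fell less, to 229 ± 20.6 FPKM in Fraction 7, against 392 ± 27.4 FPKM in LZ (log2 change -0.77 ± 0.07, adjusted p = 6.95e-07). As a share of the 3 genes' FPKM, Atp5g1 made up 8.10, 8.43 and 9.77% in Fraction 7, 9.88 and 10.2% in Fraction 6 and 8.33, 8.30 and 8.39% in Fraction 5. Among CD38- groups the values were 14.2 and 13.9% in Fraction 2, 10.8, 10.8 and 10.7% in Fraction 3 and 12.5, 11.6 and 10.7% in LZ. The share was higher in Fraction 2 than in Fraction 3, lower in Fraction 5 than in either, higher in Fraction 6 than in Fraction 5 and lower in Fraction 7 than in LZ, with no overlap. Each of these 5 differences had a two-sided exact permutation p of 0.1, the smallest that these group sizes allow. In Fraction 7 against Fraction 6 the values did not overlap either, with p = 0.2 by the same exact permutation test.

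**Figure D3:**
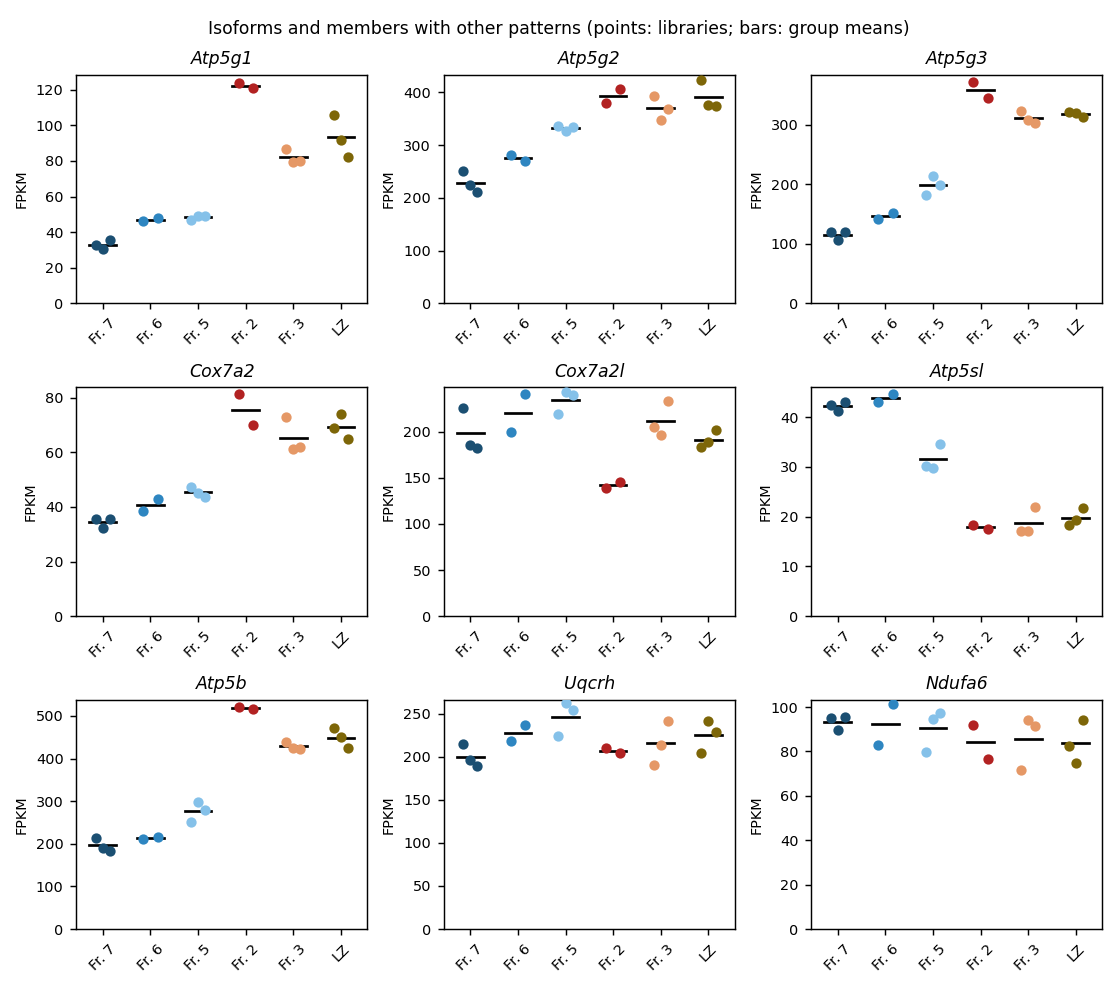
FPKM (vertical axes from 0) of 9 genes in groups from Fraction 7 to LZ, with 1 point per library and bars for group means: the 3 subunit c genes, Cox7a2 and Cox7a2l, Atp5sl, and Atp5b, Uqcrh and Ndufa6. Atp5g1, Atp5g3 and Atp5b are lower in every CD38+ library than in every light zone library, Atp5sl is higher in every one, Cox7a2l is lowest in Fraction 2, and Uqcrh and Ndufa6 overlap between most groups.

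Among complex IV genes, Cox4i1 and Cox6a1 were the most abundant. Cox4i1, a subunit through which ATP inhibits the enzyme, averaged 325 ± 8.14 FPKM in Fraction 7 and 506 ± 36.4 FPKM in LZ (log2 change -0.64 ± 0.09, adjusted p = 1.86e-05). Cox6a1 fell to 248 ± 35.8 FPKM in Fraction 7, against 489 ± 47.2 FPKM in LZ (log2 change -0.98 ± 0.11, adjusted p = 3.47e-06). Cox5a had 76.9, 63.9 and 67.6 FPKM in Fraction 7, 86.2, 91.9 and 82.2 FPKM in Fraction 5, 161 and 186 FPKM in Fraction 2 and 139, 151 and 149 FPKM in LZ. Both CD38+ groups lay below both light zone groups (Fraction 7 against LZ, log2 change -1.07 ± 0.08, adjusted p = 9.38e-08; Fraction 5 against Fraction 2, log2 change -0.99 ± 0.09, adjusted p = 2.78e-06). Cox6c averaged 146 ± 14.3 FPKM in Fraction 6 and 209 ± 12.7 FPKM in Fraction 5 (log2 change -0.51 ± 0.10, adjusted p = 0.00331). Ndufa4, named for complex I and now assigned to complex IV, averaged 105 ± 8.39 FPKM in Fraction 7 and 212 ± 20.7 FPKM in LZ (log2 change -1.0 ± 0.12, adjusted p = 5.25e-06). The tissue-restricted forms were scarce: Cox7a1 averaged 2.77 FPKM and Cox6b2 1.26 FPKM over the 16 libraries, and neither was called in Fraction 7 against LZ. Their usual partners Cox7a2 (log2 change -0.98 ± 0.09, adjusted p = 2.92e-07) and Cox6b1 (log2 change -0.95 ± 0.11, adjusted p = 4.51e-06) fell in the same comparison. Cox4i2, Cox6a2, Cox8b and Cox8c, the alternative forms of Cox4i1, Cox6a1 and Cox8a, had at most 0.779 FPKM in any library. Cox8a fell to 181 ± 24.9 FPKM in Fraction 7, against 253 ± 34.2 FPKM in LZ (log2 change -0.48 ± 0.11, adjusted p = 0.00199), while Cox7c averaged 136 ± 12.1 FPKM in Fraction 7 and 154 ± 8.54 FPKM in LZ and was not called (adjusted p = 0.188).

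Cox7a2l is named as a form of Cox7a2, but its product is known for joining complexes III and IV into supercomplexes. It had 226, 186 and 182 FPKM in Fraction 7, 199 and 241 FPKM in Fraction 6 and 219.5, 243 and 239 FPKM in Fraction 5. In the light zone gate the values were 139 and 146 FPKM in Fraction 2, 205, 196 and 234 FPKM in Fraction 3 and 183, 189 and 202 FPKM in LZ. Fraction 2 was lower than every other library. Against the direction of most called genes, Cox7a2l fell in Fraction 2 against Fraction 3 (log2 change -0.56 ± 0.11, adjusted p = 0.00468) and rose in Fraction 5 against Fraction 2 (log2 change 0.71 ± 0.11, adjusted p = 0.000143). In Fraction 7 against LZ its log2 change was 0.04 ± 0.10 (adjusted p = 0.721); it was called higher there after quantile normalization (0.38) and after median-ratio scaling (0.19). Within the pair Cox7a2l and Cox7a2, the Cox7a2l share was 86.4, 85.2 and 83.6% in Fraction 7, 83.8 and 84.8% in Fraction 6 and 82.2, 84.4 and 84.6% in Fraction 5. The light zone groups had 63.1 and 67.6% in Fraction 2, 73.7, 76.2 and 79.1% in Fraction 3 and 72.7, 71.8 and 75.7% in LZ. The share was lower in Fraction 2 than in Fraction 3, higher in Fraction 5 than in either, and higher in Fraction 7 than in LZ, each with no overlap and a two-sided exact permutation p of 0.1, again the smallest possible. The CD38+ groups overlapped one another (two-sided exact permutation p = 0.8 for Fraction 6 against Fraction 5, and 0.5 with Fraction 7 against Fraction 6).

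Complex III was split between genes that fell far and one that did not. Uqcr10, a small subunit, had 60.6, 65.8 and 52.6 FPKM in Fraction 7, 75.2 and 91.0 FPKM in Fraction 6 and 137, 141 and 161 FPKM in LZ. The 3 groups did not overlap, and Fraction 7 was the lowest (against LZ, log2 change -1.28 ± 0.11, adjusted p = 2.74e-07; against Fraction 6, log2 change -0.47 ± 0.13, adjusted p = 0.0157). Uqcrq averaged 89.9 ± 6.74 FPKM in Fraction 7 and 164 ± 9.05 FPKM in LZ (log2 change -0.86 ± 0.11, adjusted p = 1.36e-05). Uqcrfs1, the Rieske iron-sulphur protein that takes electrons from ubiquinol, averaged 37.8 ± 1.89 FPKM in Fraction 7 and 55.4 ± 1.33 FPKM in LZ (log2 change -0.54 ± 0.06, adjusted p = 4.24e-06). Uqcrh, the hinge protein beside cytochrome c1 and the most abundant gene of the complex, had 214, 196 and 189 FPKM in Fraction 7, 224, 262 and 254 FPKM in Fraction 5, 209.7 and 205 FPKM in Fraction 2 and 205, 241 and 228 FPKM in LZ. It was called in none of the 6 comparisons as deposited (Fraction 7 against LZ, log2 change -0.17 ± 0.09, adjusted p = 0.137), and its r with the mean of the other members over the 6 groups was -0.04. Its sign in Fraction 7 against LZ turned after quantile normalization (0.20, adjusted p = 0.0337). Uqcrh was also called higher in Fraction 5 against Fraction 3 after quantile normalization (0.33, adjusted p = 0.00452) and median-ratio scaling (0.24, adjusted p = 0.0331), against 0.20 ± 0.09 as deposited (adjusted p = 0.132). In Fraction 5 against Fraction 2 the same scalings called it higher too (0.38, adjusted p = 0.002, and 0.33, adjusted p = 0.00829), against 0.25 ± 0.10 as deposited (adjusted p = 0.0714).

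The 4 genes of complex II, which also serves the citric acid cycle, all fell in Fraction 7 against LZ, by unequal amounts. Sdha carries the flavin that oxidises succinate and had 81.9, 70.6 and 65.6 FPKM in Fraction 7, 61.7 and 62.9 FPKM in Fraction 6 and 67.0, 70.0 and 70.6 FPKM in Fraction 5. Values outside the CD38+ gate were 84.7 and 99.4 FPKM in Fraction 2, 84.2, 85.3 and 88.8 FPKM in Fraction 3 and 89.5, 81.1 and 82.7 FPKM in LZ. Its fall in Fraction 7 against LZ was the smallest of the 70 called (log2 change -0.22 ± 0.08, adjusted p = 0.0302), and it turned to a rise after quantile normalization (0.21, adjusted p = 0.00817). Sdhb, the iron-sulphur subunit, fell to 56.1 ± 4.11 FPKM in Fraction 7, against 105 ± 7.32 FPKM in LZ (log2 change -0.89 ± 0.08, adjusted p = 4.27e-07), and was lower in Fraction 6 than in Fraction 5 (log2 change -0.37 ± 0.09, adjusted p = 0.0115). The membrane anchors Sdhc (log2 change -0.39 ± 0.13, adjusted p = 0.0145) and Sdhd (log2 change -0.70 ± 0.08, adjusted p = 7.47e-06) lay between them in Fraction 7 against LZ. In Fraction 5 against Fraction 2 the order differed, with Sdhd changed most (log2 change -0.82 ± 0.09, adjusted p = 1.45e-05) and the other three by -0.40 to -0.43. In Fraction 7 against Fraction 6 none was called as deposited, and the signs differed, with Sdha at 0.21, Sdhc at 0.17, Sdhb at -0.22 and Sdhd near 0. Sdha was called higher there after quantile normalization (0.33, adjusted p = 0.0031) and median-ratio scaling (0.29, adjusted p = 0.00839).

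Log2 changes of complex I genes in Fraction 7 against LZ ran from -1.11 to 0.16. Of its core subunits, which carry the electrons, Ndufv1 holds the NADH site and averaged 28.02 ± 0.924 FPKM in Fraction 7 and 30.8 ± 1.19 FPKM in Fraction 5. It stood in the light zone at 59.6 ± 2.19 FPKM in Fraction 2, 46.6 ± 3.79 FPKM in Fraction 3 and 51.6 ± 2.30 FPKM in LZ. It fell in Fraction 7 against LZ (log2 change -0.86 ± 0.07, adjusted p = 1.32e-07) and in Fraction 5 against Fraction 2 (log2 change -0.93 ± 0.08, adjusted p = 1.1e-06).

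Of the accessory subunits, Ndufab1, the mitochondrial acyl carrier protein, had 21.2, 21.0 and 15.2 FPKM in Fraction 7, 21.99, 25.7 and 25.6 FPKM in Fraction 5, 60.2 and 48.4 FPKM in Fraction 2 and 38.3, 44.2 and 43.8 FPKM in LZ. It fell in Fraction 7 against LZ (log2 change -1.11 ± 0.14, adjusted p = 1.18e-05) and in Fraction 5 against Fraction 2 (log2 change -1.12 ± 0.16, adjusted p = 7.84e-05). Ndufa5 had 36.4, 26.5 and 33.1 FPKM in Fraction 7, 24.4 and 24.9 FPKM in Fraction 6 and 30.7, 33.1 and 34.6 FPKM in Fraction 5. Light zone levels were 73.4 and 77.9 FPKM in Fraction 2, 50.03, 54.6 and 55.9 FPKM in Fraction 3 and 59.6, 56.8 and 52.3 FPKM in LZ. Fraction 6 was lowest, so that Ndufa5 was the member that rose in Fraction 7 against Fraction 6 (log2 change 0.35 ± 0.11, adjusted p = 0.0358) and 1 of those that fell in Fraction 6 against Fraction 5 (log2 change -0.40 ± 0.11, adjusted p = 0.0226). Neither call held without every single library in turn. Ndufa12 fell in Fraction 5 against Fraction 3 (log2 change -0.82 ± 0.12, adjusted p = 0.000217), while Ndufa1 (log2 change -0.55 ± 0.11, adjusted p = 0.00325) and Ndufa9 (log2 change -0.53 ± 0.10, adjusted p = 0.00149) fell most in Fraction 6 against Fraction 5. Ndufb6 fell in Fraction 5 against Fraction 3 (log2 change -0.67 ± 0.14, adjusted p = 0.00258).

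Of the 29 accessory genes, 6 were not called in Fraction 7 against LZ: Ndufa3, Ndufa6, Ndufa7, Ndufb4, Ndufs5 and Ndufv3. Ndufa7 (log2 change -0.14 ± 0.10, adjusted p = 0.249) was called higher after quantile normalization (0.27, adjusted p = 0.0275). Ndufa3, the most abundant of complex I, averaged 165 ± 11.7 FPKM in Fraction 7 and 182 ± 29.3 FPKM in LZ and was not called (log2 change -0.13 ± 0.11, adjusted p = 0.344). Ndufb7, the next, fell to 73.3 ± 3.45 FPKM in Fraction 7, against 142 ± 23.1 FPKM in LZ (log2 change -0.93 ± 0.11, adjusted p = 6.61e-06). Ndufa6 averaged 93.5 ± 3.23 FPKM in Fraction 7, 92.2 ± 13.2 FPKM in Fraction 6 and 90.6 ± 9.42 FPKM in Fraction 5. Among CD38- groups the values were 84.3 ± 10.7 FPKM in Fraction 2, 85.7 ± 12.4 FPKM in Fraction 3 and 83.8 ± 9.61 FPKM in LZ. It was called in none of the 6 comparisons as deposited (Fraction 7 against LZ, log2 change 0.16 ± 0.12, adjusted p = 0.272), although its r with the mean of the other members was -0.99, and it was called higher in that comparison after quantile normalization (0.56) and median-ratio scaling (0.31). Ndufs5 spread too widely for a call, with 9.77, 21.1 and 5.97 FPKM in Fraction 7 and 16.2, 31.1 and 13.4 FPKM in LZ.

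The assembly factors, which help build complex I and are not part of it, had low levels. Ndufaf2 had 5.57, 6.22 and 7.09 FPKM in Fraction 7, 5.03 and 6.91 FPKM in Fraction 6 and 6.20, 8.18 and 10.2 FPKM in Fraction 5. In the light zone gate the values were 15.7 and 26.5 FPKM in Fraction 2, 10.9, 11.1 and 13.5 FPKM in Fraction 3 and 18.0, 17.3 and 13.97 FPKM in LZ. It had the largest rise of the members in Fraction 2 against Fraction 3 (log2 change 0.74 ± 0.22, adjusted p = 0.0356) and fell in Fraction 7 against LZ (log2 change -1.25 ± 0.20, adjusted p = 7.74e-05). Ndufaf4 averaged 7.05 ± 1.47 FPKM in Fraction 2 and 3.90 ± 0.256 FPKM in Fraction 3 (log2 change 0.71 ± 0.13, adjusted p = 0.00352). Ndufaf1 fell in Fraction 7 against Fraction 6 (log2 change -0.39 ± 0.11, adjusted p = 0.0225).

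Atp5sl was the member that rose where most fell. The gene, now called Dmac2 and known for complex I assembly rather than ATP synthesis, had 42.4, 41.3 and 43.0 FPKM in Fraction 7, 43.0 and 44.6 FPKM in Fraction 6 and 30.2, 29.8 and 34.6 FPKM in Fraction 5. The light zone groups had 18.3 and 17.5 FPKM in Fraction 2, 17.2, 17.1 and 21.9 FPKM in Fraction 3 and 18.2, 19.4 and 21.7 FPKM in LZ. All 8 CD38+ libraries lay above all 8 light zone libraries. It rose in Fraction 7 against LZ (log2 change 1.06 ± 0.09, adjusted p = 3.3e-07), in Fraction 5 against Fraction 3 (log2 change 0.73 ± 0.09, adjusted p = 9.5e-05) and against Fraction 2 (log2 change 0.78 ± 0.11, adjusted p = 5e-05), and in Fraction 6 against Fraction 5 (log2 change 0.46 ± 0.11, adjusted p = 0.0074). Its r with the mean of the other members was -0.99. Atp5s, of the same naming, was at 4.83 ± 0.775 FPKM in Fraction 7 and 4.03 ± 0.357 FPKM in LZ and was not called. Cox4nb, now Emc8 and part of an endoplasmic reticulum complex, fell in Fraction 7 against LZ (log2 change -0.71 ± 0.10, adjusted p = 4.42e-05).

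**Figure D4:**
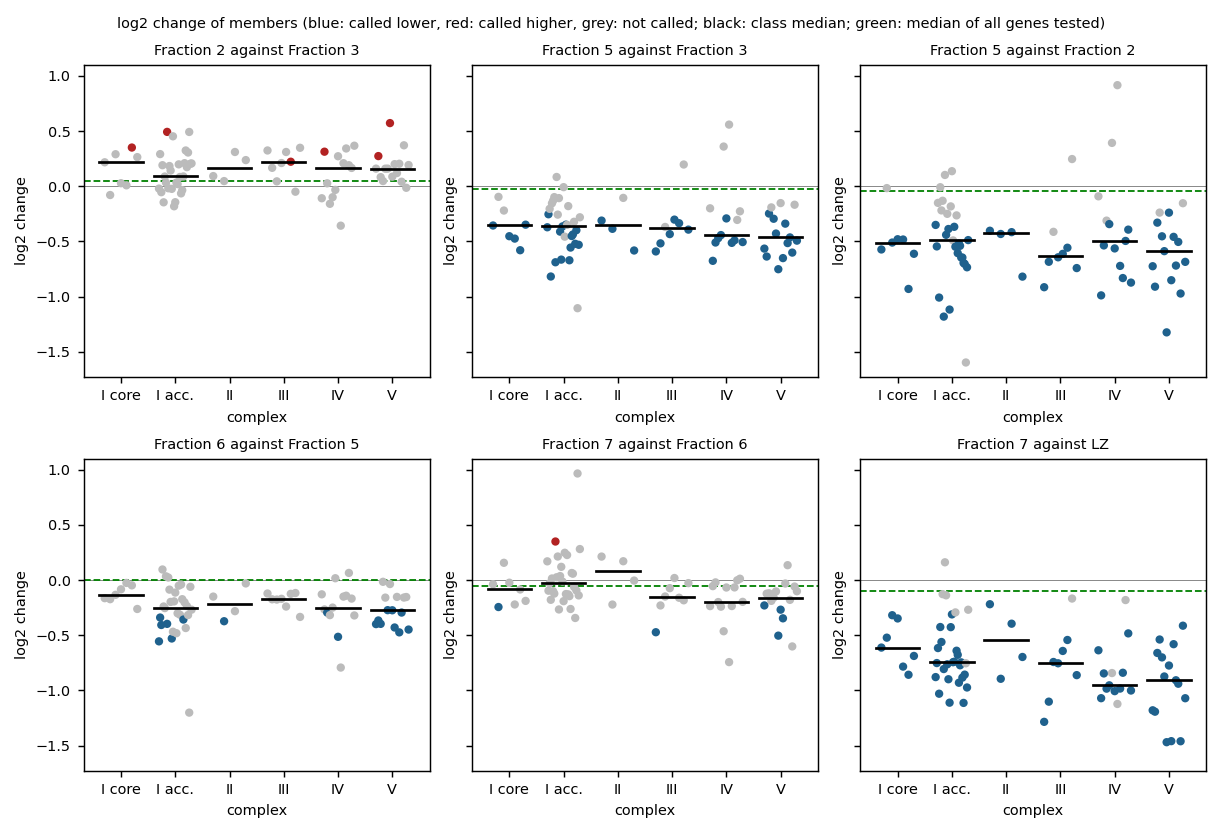
Log2 change (vertical axes, tested on log2(FPKM + 1)) of the subunit genes of complexes I to V in the 6 comparisons, 1 point per gene, blue where called lower, red where called higher and grey where not called, with black bars at the median of each complex and a dashed green line at the median of all tested genes. Black bars lie below the green line in every complex for Fraction 5 against Fractions 3 and 2 and for Fraction 7 against LZ, and on both sides of it for Fraction 7 against Fraction 6.

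Pro-memory cells, the CD38+ cells with high Bcl6-YFP, had lower levels of most of these mRNAs than both light zone fractions. In Fraction 5 against Fraction 3, 50 of 84 genes fell and 1 rose, where 19.5% of all tested genes fell and 9.99% rose (29.5% either way); the members' median was -0.37, against -0.03 for all genes. By complex, 12 of 15 complex V genes fell, 8 of 13 of complex IV, 6 of 8 of complex III, 3 of 4 of complex II and 20 of 36 of complex I, and none of the 4 assembly factors was called. In Fraction 5 against Fraction 2, 59 genes fell and 2 rose, where 27.1% of all tested genes fell and 16.6% rose (43.7% either way); the median was -0.51, against -0.04 for all genes. There 13 of 15 complex V genes fell, 9 of 13 of complex IV, 6 of 8 of complex III, 4 of 4 of complex II, 24 of 36 of complex I and 2 of 4 assembly factors. Without Atp5sl, Cox7a2l, Atp5s and Cox4nb, 49 of 80 genes fell against Fraction 3 and 58 of 80 against Fraction 2, and none rose. These 2 comparisons share the Fraction 5 libraries. Without any single library, 37 of the 51 and 44 of the 61 calls held. After quantile normalization 31 members fell and 3 rose against Fraction 3, while 1664 of all tested genes fell and 1675 rose. Against Fraction 2, 44 members fell and 6 rose, while 2479 of all tested genes fell and 2713 rose. Complex I then had 10 of 36 down against Fraction 3, and 17 down and 3 up against Fraction 2. Complex II had 2 of 4 and 1 of 4 down.

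Few of these genes differed between the 2 light zone fractions. In Fraction 2 against Fraction 3, 8 rose and 1 fell, where 9.17% of all tested genes rose and 6.45% fell; 10.7% of the members were called, against 15.6% of all genes, so the share was no greater than the background. The genes that rose were Atp5b, Atp5g1, Cox5a, Ndufa5, Ndufaf2, Ndufaf4, Ndufv1 and Uqcrfs1, and the median of the 84 was 0.16, against 0.04 for all genes. The rise of Atp5g1 and the fall of Cox7a2l held without any single library, whereas the other 7 calls did not. After quantile normalization 6 rose and 3 fell.

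Between pre-memory and pro-memory cells, complex V held 9 of the 18 genes that fell. In Fraction 6 against Fraction 5, 18 genes fell and 1 rose, where 10.4% of all tested genes fell and 7.07% rose (17.5% either way); the median was -0.18, against 0.00 for all genes. Of the 18, 9 were among the 15 complex V genes, 6 among the 36 of complex I, all accessory subunits, 2 among the 13 of complex IV and 1 among the 4 of complex II, with none of the 8 complex III genes. Atp5g3 fell to 147 ± 7.79 FPKM in Fraction 6, against 198 ± 15.9 FPKM in Fraction 5 (log2 change -0.43 ± 0.08, adjusted p = 0.00135). Fraction 6 has 2 libraries, and without its replicate 1 the count fell to 7, all among the 19; 6 calls held without any single library, Atp5a1, Atp5g3, Atp5o, Ndufa1, Ndufa11 and Ndufa9.

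Few members were called between mature memory and pre-memory cells. In Fraction 7 against Fraction 6, 7 fell and 1 rose, where 13.9% of all tested genes fell and 7.37% rose; 9.52% of the members were called, against 21.2% of all genes. Those that fell included Ndufaf1, Uqcr10 and 4 genes of complex V, Atp5a1, Atp5g1, Atp5g2 and Atp5g3, 3 of them for subunit c. The count fell to 1 without Fraction 6 replicate 2 and to 4 without both Fraction 7 libraries in which Sdc1 passed 1 FPKM, and Atp5g1 was the call that held without any single library. Rises and falls numbered 3 and 4 after quantile normalization and 2 and 4 after median-ratio scaling.

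Genes that work beside the complexes but lie outside the naming rule were read from 4 lists. The list of 19 citric acid cycle enzymes also holds Pdha1, Pdhb, Dlat, Pdhx and Pcx, which act on pyruvate outside the cycle itself. Of the 19, 17 fell and none rose in Fraction 7 against LZ, and 16 fell in Fraction 5 against Fraction 2. In Fraction 5 against Fraction 3, 12 fell, in Fraction 6 against Fraction 5, 6 fell, and in Fraction 7 against Fraction 6, 1 fell and 1 rose, where 19.5%, 10.4% and 13.9% of all tested genes fell. Citrate synthase, Cs, averaged 51.3 ± 2.18 FPKM in Fraction 7 and 97.7 ± 4.81 FPKM in LZ (log2 change -0.91 ± 0.06, adjusted p = 2.21e-08). Of 26 other complex III and IV genes, their assembly factors and electron carriers, 14 fell and 2 rose in Fraction 7 against LZ. Those that rose were the assembly genes Coa5, which averaged 26.6 ± 1.499 FPKM in Fraction 7 and 22.9 ± 1.33 FPKM in LZ (log2 change 0.20 ± 0.07, adjusted p = 0.0191), and Uqcc3, which averaged 27.8 ± 2.68 FPKM in Fraction 7 and 20.9 ± 3.88 FPKM in LZ (log2 change 0.40 ± 0.15, adjusted p = 0.0341), listed as 6330578E17Rik and AI462493. Cytochrome c, Cycs, which shuttles electrons between complexes III and IV, averaged 11.3 ± 1.40 FPKM in Fraction 7 and 30.2 ± 1.78 FPKM in LZ (log2 change -1.35 ± 0.09, adjusted p = 3.03e-08), and cytochrome c1, Cyc1, averaged 46.9 ± 6.14 FPKM in Fraction 7 and 90.5 ± 9.87 FPKM in LZ (log2 change -0.94 ± 0.10, adjusted p = 2.06e-06). Both also fell in Fraction 5 against Fraction 2, where Cycs averaged 15.4 ± 1.41 FPKM in Fraction 5 and 40.0 ± 4.37 FPKM in Fraction 2 (log2 change -1.32 ± 0.11, adjusted p = 7.68e-07). Of 17 other subunits and assembly factors of complexes I, II and V, 7 fell and none rose in Fraction 7 against LZ, where 38.0% of all tested genes fell and 24.1% rose; Sdhaf2, which helps attach the flavin to Sdha, averaged 17.2 ± 1.53 FPKM in Fraction 7 and 31.7 ± 2.03 FPKM in LZ (log2 change -0.85 ± 0.09, adjusted p = 1.39e-06). Of 19 tested regulators of mitochondrial gene expression and biogenesis, 8 fell and 1, Mterf, rose. Mterf averaged 6.29 ± 0.862 FPKM in Fraction 7 and 4.65 ± 1.07 FPKM in LZ (log2 change 0.38 ± 0.15, adjusted p = 0.0359). Gabpb1, a subunit of GABP, averaged 11.1 ± 1.01 FPKM in Fraction 7 and 21.4 ± 2.38 FPKM in LZ (log2 change -0.88 ± 0.10, adjusted p = 4.48e-06), and Polg, the mitochondrial DNA polymerase, averaged 20.0 ± 0.355 FPKM in Fraction 7 and 33.1 ± 1.92 FPKM in LZ (log2 change -0.70 ± 0.08, adjusted p = 4.7e-06). Lrpprc, which stabilises mitochondrial mRNA, averaged 11.7 ± 1.60 FPKM in Fraction 5 and 25.9 ± 1.32 FPKM in Fraction 2 (log2 change -1.09 ± 0.11, adjusted p = 4.69e-06), and Pprc1, a coactivator of NRF1, averaged 5.20 ± 0.861 FPKM in Fraction 5 and 15.2 ± 0.912 FPKM in Fraction 2 (log2 change -1.39 ± 0.15, adjusted p = 7.12e-06). For comparison, 38.0% of all tested genes fell in Fraction 7 against LZ and 27.1% in Fraction 5 against Fraction 2. The citric acid cycle list stood above both shares. In Fraction 7 against LZ the list of 26 also stood above the share, while the regulators and the list of 17 stood near it. In Fraction 5 against Fraction 2, 11 of the 19 regulators fell and 1 rose, and 9 of the list of 17 fell and none rose. Of the list of 26, 11 fell and 2 rose there, so these lists also stood above the 27.1%.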

How the data were processed

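Per the labels' protocols, RNA was extracted with TRIzol and libraries were made with an NEBNext Ultra kit without strand marking, so sense and antisense reads of overlapping genes are counted together. The authors used TopHat2 2.0.8, Cufflinks 2.1.1 and the mm9 build, per the submitters' processing notes. The deposited values are FPKM per gene; 1 nameless row was not used. FPKM of short transcripts depends strongly on the length used, and most members are short, so levels of different genes are less comparable than groups.

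The test covered genes that reached 1 FPKM in 2 or more libraries, with limma 3.58.1 (trend, R 4.3.3) on log2(FPKM + 1), in 1 model of 6 group means over 16 libraries, with Benjamini-Hochberg adjustment over 11266 genes within each of 6 comparisons and a threshold of 0.05. Changes on this scale understate those of low genes. Errors are SD for levels and SE for log2 changes. Scripts were tested on simulated data. Alternatives were another pseudocount (0.1), no filter, a stricter filter (5 FPKM), quantile and median-ratio scaling, fits of only the groups compared, a replicate block and leaving out each library. Leaving out both Fraction 7 libraries with Sdc1 above 1 FPKM was chosen after seeing the data. Complex membership was assigned by hand from general knowledge. Named are the 2 most abundant genes of each complex, the largest rises (4) and falls (6) called in each comparison with at least 5 FPKM in the higher group, all Sdh genes, forms of 1 subunit, calls against the majority, the members most (3) and least (5) like the rest, and others as examples of a role. Ndufa4, Ndufv1, Uqcrfs1, Atp5a1, Atp5c1, Cox7c, Ndufs5, Cox4nb and the genes named to complete a short count were chosen after their values were seen. Some genes that the rule names are not reported here. The members and lists were chosen with earlier results of these data known. Promoter windows are RefSeq's on GRCm38.p6, matched by symbol; no mm9 coordinates are given.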

Additional observations from a re-analysis of the deposited data

How the results depend on the processing

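Depth is unknown and groups hold 2 or 3 libraries, which limits what a missing call says, most of all for genes under about 5 FPKM. The direction of the members' median was the same under all alternatives run for the 6 comparisons, but quantile normalization left that of Fraction 7 against Fraction 6 at -1e-04 (median-ratio -0.0262). Relative to the median of all genes, it was -0.0485 as deposited, 0.0091 after quantile normalization and -0.0386 after median-ratio scaling, so that sign was not stable. Quantile normalization also gave medians of -0.21 in Fraction 5 against Fraction 3, -0.31 in Fraction 5 against Fraction 2 (median-ratio -0.43) and -0.41 in Fraction 7 against LZ (median-ratio -0.61), and turned Sdha (0.21), Uqcrh (0.20) and Ndufa7 (0.27) to called rises in Fraction 7 against LZ; the cause was not tested. Over all genes, rises and falls after quantile normalization numbered 866 and 1041 in Fraction 2 against Fraction 3, 1675 and 1664 in Fraction 5 against Fraction 3, 2713 and 2479 in Fraction 5 against Fraction 2, 1205 and 1470 in Fraction 7 against Fraction 6 and 3464 and 3467 in Fraction 7 against LZ, against 1033 and 727, 1125 and 2197, 1872 and 3056, 830 and 1563, and 2718 and 4279 as deposited. Median-ratio scaling gave 1165 and 1315 in Fraction 7 against Fraction 6 and 3591 and 3642 in Fraction 7 against LZ. With no filter, 5 members were called in Fraction 2 against Fraction 3. A fit of only Fractions 7 and 6 called 1, and leaving out both Fraction 7 libraries with Sdc1 above 1 FPKM called 4 in that comparison.

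Leaving out 1 library at a time gave 3 to 6 calls and medians of 0.0917 to 0.17 in Fraction 2 against Fraction 3, 39 to 52 calls (-0.42 to -0.32) in Fraction 5 against Fraction 3, 50 to 60 calls (-0.56 to -0.48) in Fraction 5 against Fraction 2, 7 to 21 calls (-0.29 to -0.11) in Fraction 6 against Fraction 5, 1 to 8 calls (-0.18 to -0.0237) in Fraction 7 against Fraction 6 and 69 to 73 calls (-0.76 to -0.72) in Fraction 7 against LZ. Where a group was left with 1 library, that library was assumed to vary like the other groups. Whether replicate numbers pair the libraries is not labelled. Same-numbered libraries of different groups had correlations of deviations from group means of -0.18 to 0.16, and differently numbered ones of -0.16 to 0.18. With 2 or 3 libraries per group, these correlations cannot decide it. With the replicate number as a block, 9, 54, 64, 21, 10 and 72 members were called in Fraction 2 against 3, 5 against 3, 5 against 2, 6 against 5, 7 against 6 and 7 against LZ, against 9, 51, 61, 19, 8 and 71 without it.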

Other observations

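The 8 tested genes outside the naming rule with the highest Pearson r to the members' mean over the 16 libraries (0.99 for each when rounded) were Mrps18a, Ppia, Arf1, Snrpa1, Eif3l, Nutf2-ps1, Erh and Slc25a5. The points are 16 libraries of 6 groups, so r mostly reflects group means and is given as a description. Mrps18a, a protein of the mitochondrial ribosome, averaged 18.4, 20.1, 25.7, 53.8, 46.5 and 49.8 FPKM in Fractions 7, 6, 5, 2, 3 and LZ. Slc25a5, the carrier that exchanges ADP and ATP across the inner membrane, averaged 172, 212, 267, 475, 398 and 419 FPKM in the same order. Ppia, a cytosolic prolyl isomerase, averaged 660.3, 731, 961, 1977, 1559 and 1643 FPKM and Snrpa1, a splicing protein, 22.04, 26.0, 33.2, 89.7, 68.8 and 76.1 FPKM in that order. Of the 8, Mrps18a and Slc25a5 act in mitochondria, and the others include genes of splicing, translation and protein folding.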
